A study of Mus musculus with 13 samples.

Results

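The genes described here are the 10 members of the MHC class II presentation machinery that were measured in a single-cell atlas of the mouse liver, H2-Aa, H2-Ab1, H2-Eb1, Cd74, Ciita, H2-DMa, H2-DMb1, H2-DMb2, H2-Oa and H2-Ob. They were taken by name from a fixed list, 10 of the 55353 genes in the tables. The list was chosen with earlier results of these data known, but no measured value entered the rule that picked these genes. Their unique molecular identifiers (UMIs, counts of captured mRNA molecules) were summed per library over cells with at least 1500 UMIs, by cell type and by day of diet. The 13 libraries came from male C57BL/6J mice fed chow with 0.1% DDC (diethoxycarbonyl-dihydrocollidine), a compound that injures small bile ducts. Steady state was D0 without DDC, onset was D3 and D5, and progression was D9, D19 and D25. Each day had a library of protocol A and a library of protocol B, which differed in their sort gates and in their index kit. Protocol A sorted Epcam+, Cd45+, Pdpn+, Lyve-1+ and Cd31+ Lyve-1- cells together with retinoid-autofluorescent ones. Protocol B sorted live cells of a stellate cell preparation, Cd45+ Itgax+ Cd64-, Epcam+ and Cd3e+ Lyve-1- cells. The STOP library was made with protocol B after 18 days of DDC and 7 days of recovery. The labels do not say which mice went into which library, so p-values measure the spread between libraries, which may in part be technical.

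MHC class II molecules are pairs of an alpha and a beta chain that display peptides from endocytosed proteins to CD4+ T cells, and they are known above all from dendritic cells (DCs), B cells and macrophages. New pairs assemble with the invariant chain, which blocks the groove and steers them to endosomes, where proteases trim it and H2-DM exchanges the remaining fragment for peptide. H2-O restrains H2-DM, and the coactivator CIITA switches the whole group on by joining factors that sit on an X box and a Y box in front of each gene. In the list, H2-Aa encodes the I-A alpha chain, H2-Ab1 the I-A beta chain and H2-Eb1 the I-E beta chain. Cd74 encodes the invariant chain, H2-DMa, H2-DMb1 and H2-DMb2 the H2-DM chains, and H2-Oa and H2-Ob the H2-O chains.

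On GRCm38, 8 of the 10 genes lie in the class II region of chromosome 17, from H2-Oa (34092340 to 34095234, plus strand) to H2-Eb1 (34305867 to 34316674, plus strand), with H2-Aa on the minus strand (34282744 to 34287823). Ciita lies on chromosome 16 (10480059 to 10528418), and Cd74 on a chromosome of its own. Promoters of 300 bases were read from RefSeq (GRCm38.p6) for 7 of the genes, H2-Ab1 and Ciita had no row there, and Cd74 was not searched. H2-DMa had a pair of promoters, and ATTGG, the core of a Y box, searched on both strands, stood in only 1 of them. Each of the 7 genes had a promoter with ATTGG, beside 37.4% of 32851 promoters in the table. AACNGATG, a strict spelling of part of the X box, stood in 3 of the 7 (H2-Eb1, H2-DMb1 and H2-DMb2), beside 2.32% of all promoters. The order AACNGATG then ATTGG with 28 to 34 bases between their starts occurred in 5 promoters of the table (0.0152%), and 3 of these belonged to the list. The windows below are the promoter stretches outside annotated exons, shown because these boxes are what the class II genes share as targets of CIITA, with AACNGATG and ATTGG in capitals and 60 bases each, 5′ to 3′ on the gene's strand. They lie at chr17:34145119-34145178 (H2-DMb2, plus strand), chr17:34238808-34238867 (H2-Ob, plus), chr17:34287852-34287911 (H2-Aa, minus) and chr17:34305768-34305827 (H2-Eb1, plus).
H2-DMb2: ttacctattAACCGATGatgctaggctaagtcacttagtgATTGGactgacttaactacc
H2-Ob: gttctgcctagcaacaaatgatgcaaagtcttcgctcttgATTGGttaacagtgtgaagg
H2-Aa: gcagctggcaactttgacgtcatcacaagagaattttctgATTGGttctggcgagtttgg
H2-Eb1: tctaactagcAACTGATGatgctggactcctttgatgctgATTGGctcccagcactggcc
ATTGG began 90 bases before the start of H2-DMb2, 57 before H2-Ob, 48 before H2-Aa and 59 before H2-Eb1, and the distance between the starts of the capitals was 31 bases in H2-DMb2 and 30 in H2-Eb1. The H2-DMb2 window lies inside the gene's GENCODE span, since the RefSeq start is farther downstream. A match is a description of these letters and not evidence that a factor was bound in these cells.

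The libraries held 29307190 to 108602421 UMIs and 1541 to 14764 cells each, 95563 cells in all, and pairs of libraries shared 1 to 49 cell barcodes, at most 0.519% of the smaller library. Marker genes that contained no member of the list named 4994 cells as cDC2, 3080 as cDC1, 700 as mature DC, 1774 as pDC (plasmacytoid DC), 1282 as B cells, 10868 as macrophages, 27495 as liver sinusoidal endothelial cells (LSEC) and 4011 as biliary epithelial cells (BEC). Macrophages were split into 4605 Kupffer cells and 6263 other macrophages. Clusters that could not be named held 15.58% of cells. A type entered a library's values with at least 20 cells, which left cDC2, pDC and mature DC without D0 A and BEC without D0 B.

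The D0 B library stood apart within the class II group itself. In cDC2 it held 8.66 Cd74 UMIs per H2-Ab1 UMI, beside 1.90 to 2.64 (median 2.08) in the other 10 atlas libraries. The same ratio was 7.67 in its cDC1 (1.73 to 2.39 elsewhere), 9.90 in its pDC (2.78 to 4.46), 13.1 in its B cells (3.27 to 4.83) and 7.60 in its other macrophages (1.95 to 2.95). It was 3.67 in its Kupffer cells, of which there were only 27, inside the range of the other libraries (2.26 to 3.82). A cluster of 307 Kupffer cells, 97.7% of them from D0 A, stood at 3.92. In barcodes with at most 100 UMIs, which hold free RNA, the ratio was 8.24 in D0 B and 1.63 to 3.38 in the others. The highest of these others was D0 A, the second steady-state library, followed by D25 A at 2.71. H2-Aa and H2-Eb1 per H2-Ab1 were shifted as well, to 2.06 and 1.62 in cDC2 of D0 B against at most 1.09 and 1.01 elsewhere, and H2-DMb1 per H2-DMa was 1.57 against at most 1.07. The cells of D0 B also formed clusters of their own, since 95.7% of a cDC2 cluster of 990 cells, 94.1% of a cDC1 cluster of 942 cells and 98.8% of a pDC cluster of 657 cells came from this library. The cause was not tested. Comparisons with steady state below rest on D0 B in part, on D0 B alone for cDC2, pDC and mature DC, and on D0 A alone for BEC.

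**Figure D1:**
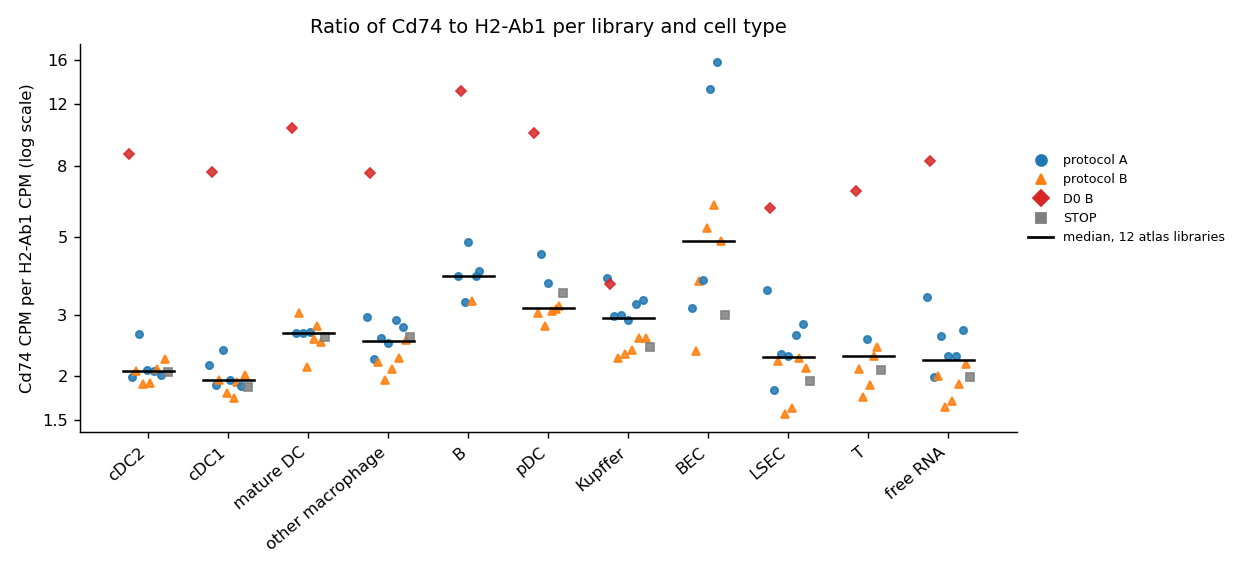
Ratio of Cd74 to H2-Ab1 in CPM, on a log scale, for each cell type and for free RNA. Points are libraries, coloured by protocol, with D0 B and STOP marked apart and a line at the median of the atlas libraries. D0 B lies above the other libraries in each type in which it was measured other than Kupffer cells, and the BEC values reach 15.8.

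Class II genes were highest in cDC2 and cDC1, intermediate in mature DC, macrophages, B cells and pDC, and lowest in BEC and LSEC. In CPM, a gene's UMIs over all UMIs of that cell type in the library, scaled to a fixed total, H2-Ab1 stood at a median of 13600 in cDC2 (range 8265 to 16930 over 11 libraries) and at 11520 CPM in cDC1 (8315 to 15200). It was 7003 CPM in mature DC (3747 to 12120), 5353 in other macrophages (787 to 9248), 2870 in B cells (896 to 3442) and 1896 in pDC (1255 to 2568). Kupffer cells, the resident macrophages of the sinusoid, had 1188 CPM (476 to 3711), BEC 83.5 (22.9 to 332) and LSEC 65.4 (15.9 to 316). Neighbours in this order overlapped in their ranges at each step other than that from Kupffer cells to BEC. Cd74 kept this order, from a median of 28530 CPM in cDC2 through 23150 in cDC1, 20440 in mature DC, 11900 in other macrophages, 10440 in B cells, 6399 in pDC and 3356 in Kupffer cells to 443 in BEC and 146 in LSEC. H2-Aa and H2-Eb1 gave the same order down to Kupffer cells, with BEC and LSEC again below the gap. Without D0 B, the median of Cd74 was 28080 CPM in cDC2 and 22460 in cDC1.

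**Figure D2:**
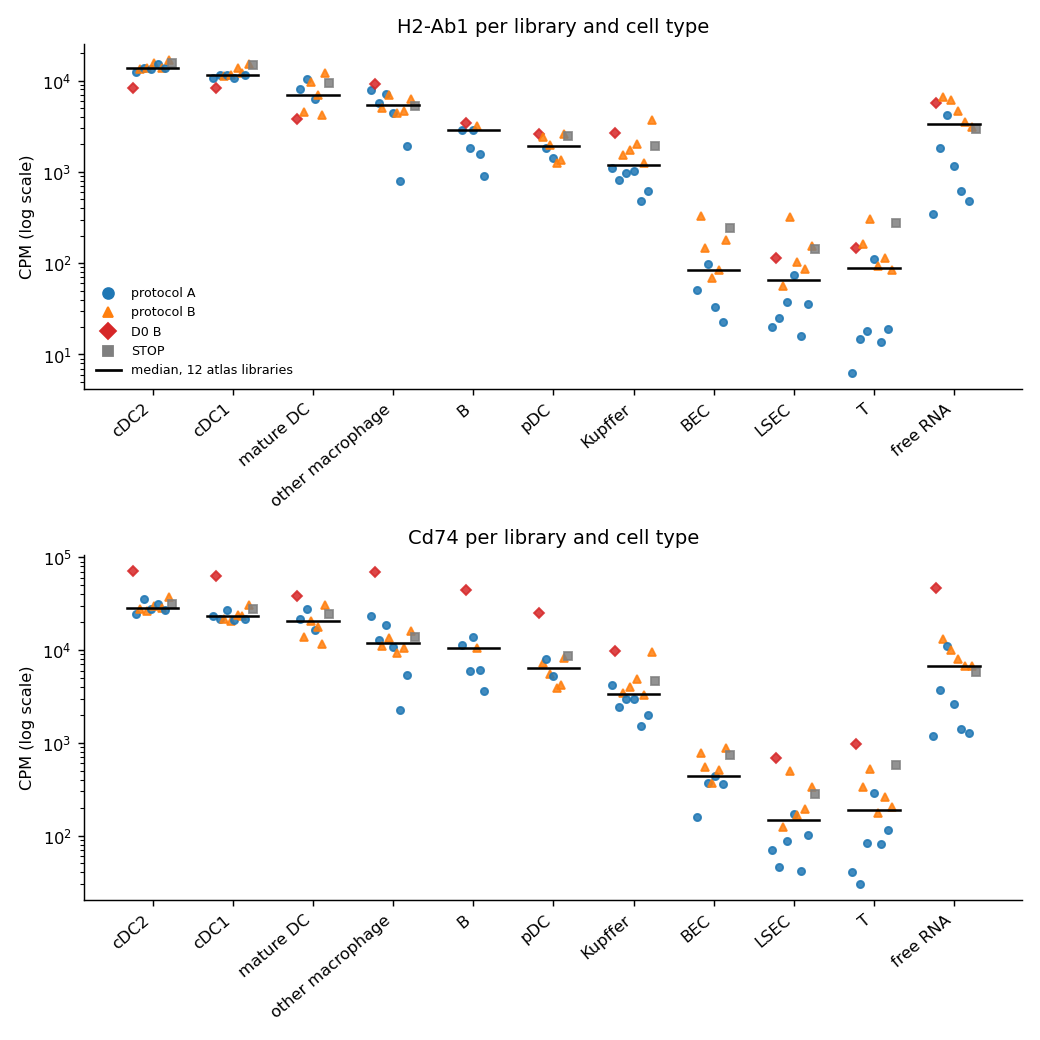
H2-Ab1 (top) and Cd74 (bottom) in CPM on a log scale, by cell type, with T cells and free RNA as background. Points are libraries, coloured by protocol, and lines are medians of the atlas libraries. A gap separates the Kupffer cell median of 1188 CPM for H2-Ab1 from those of BEC (83.5) and LSEC (65.4), which lie among the T cell values.

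The members that edit the class II groove were ordered differently. H2-Ob was highest in B cells, at a median of 402 CPM (161 to 594), followed by cDC2 (158), cDC1 (154), mature DC (68.0) and pDC (10.2). H2-DMb2 was likewise highest in B cells (327 CPM, 91.9 to 628) and cDC2 (298, 186 to 454), whose ranges overlapped, and lay at 111 CPM in mature DC and 97.2 in cDC1. H2-DMb1 was instead highest in cDC1 (998 CPM, 694 to 1754) and cDC2 (855, 574.5 to 1441), and B cells had 93.1 CPM. H2-Oa was highest in cDC2 (206 CPM, 76.5 to 323) and fell to 4.47 CPM in other macrophages and 2.06 in Kupffer cells. Ciita, the coactivator gene, reached 19.6 CPM in cDC2 (8.17 to 25.6), 14.0 in cDC1, 8.65 in B cells and 1.70 in pDC. With every cell thinned to 1500 UMIs, a Ciita UMI was seen in 2.66% ± 1.03 (SD, n = 11) of cDC2, and in 0.0185% ± 0.0300 (n = 12) of T cells, which serve as background. The unthinned shares were 14.7% and 0.0683%, at median depths of 9465 and 4387 UMIs.

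Within libraries, cDC2 exceeded cDC1 in most members, but by small factors in the chains and by larger ones in H2-DMb2 and H2-Oa. H2-DMb2 was higher in cDC2 in 10 of 10 libraries, by 2.11 to 4.90 times (log2 difference 1.53 ± 0.10 SE, adjusted p = 1e-10, edgeR quasi-likelihood test with the library as a block). H2-Oa was higher in 10 of 10 libraries (1.01 ± 0.10, adjusted p = 7.3e-08). The chains H2-Eb1 (0.32 ± 0.03), H2-Aa (0.24 ± 0.03) and H2-Ab1 (0.15 ± 0.04), Cd74 (0.27 ± 0.03) and Ciita (0.46 ± 0.12) were also called higher. H2-DMb1 was lower in cDC2 in 9 of 10 libraries (−0.25 ± 0.05, adjusted p = 0.00069). H2-DMa (−0.00 ± 0.05) and H2-Ob (−0.03 ± 0.09) did not pass the test. In all 8 of 10 members were called, 7 higher and 1 lower, where 53.7% of 8641 genes were called, and the H2-DM beta genes differed in opposite directions. Reads that fit both H2-DMb1 and H2-DMb2, near-identical neighbours on chromosome 17, could be counted for either copy, and how the authors' counting assigned them is not given in the sources used here.

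Against pDC, all 10 members were higher in cDC2 (60.7% of 8623 genes were called in either direction), and each was higher in 8 of 8 libraries. The largest log2 differences were those of H2-Ob (3.76 ± 0.22), H2-Eb1 (3.67 ± 0.16) and H2-DMb2 (3.64 ± 0.20), and the smallest were those of H2-Oa (1.62 ± 0.14) and H2-DMa (1.76 ± 0.11). H2-Ob in pDC exceeded the T cell level in 3 of 8 libraries (median ratio 0.859). T cells are not taken as background for H2-Ob, since LSEC lay lower. The median ratio of H2-Ob to free RNA was 0.299 in T cells, 0.189 in pDC and 0.035 in LSEC. Against B cells, 7 of the 9 members tested were higher in cDC2 and H2-Ob was lower (−0.94 ± 0.22, adjusted p = 0.0032, lower in 6 of 6 libraries), with 47.2% of 6044 genes called. H2-DMb1 differed most (3.52 ± 0.29), and H2-DMb2 did not pass (0.48 ± 0.21, adjusted p = 0.079). The H2-Ob call was lost with cells of at least 3000 UMIs (−0.70), and that of H2-Oa (1.39 ± 0.28) without possible doublets (0.57). Against macrophages, all 10 members were higher in cDC2 (60.6% of 10114 genes called), by 1.46 ± 0.14 for H2-DMb1 and 2.14 ± 0.29 for H2-Ab1, but by 4.07 ± 0.31 for H2-DMb2, 4.35 ± 0.35 for H2-Ob and 5.12 ± 0.43 for H2-Oa. H2-Ab1 was higher in 10 of 11 libraries and the other members in 11 of 11. The check without possible doublets did not cover mixes of DCs and macrophages. In Kupffer cells, H2-Oa and H2-Ob exceeded the T cell level in 5 and 6 of 12 libraries. Their median ratios to free RNA were 0.114 and 0.211 in Kupffer cells, and 0.017 and 0.035 in LSEC. Whether the difference between cDC2 and macrophages was larger for H2-O than for the class II chains was not tested.

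**Figure D3:**
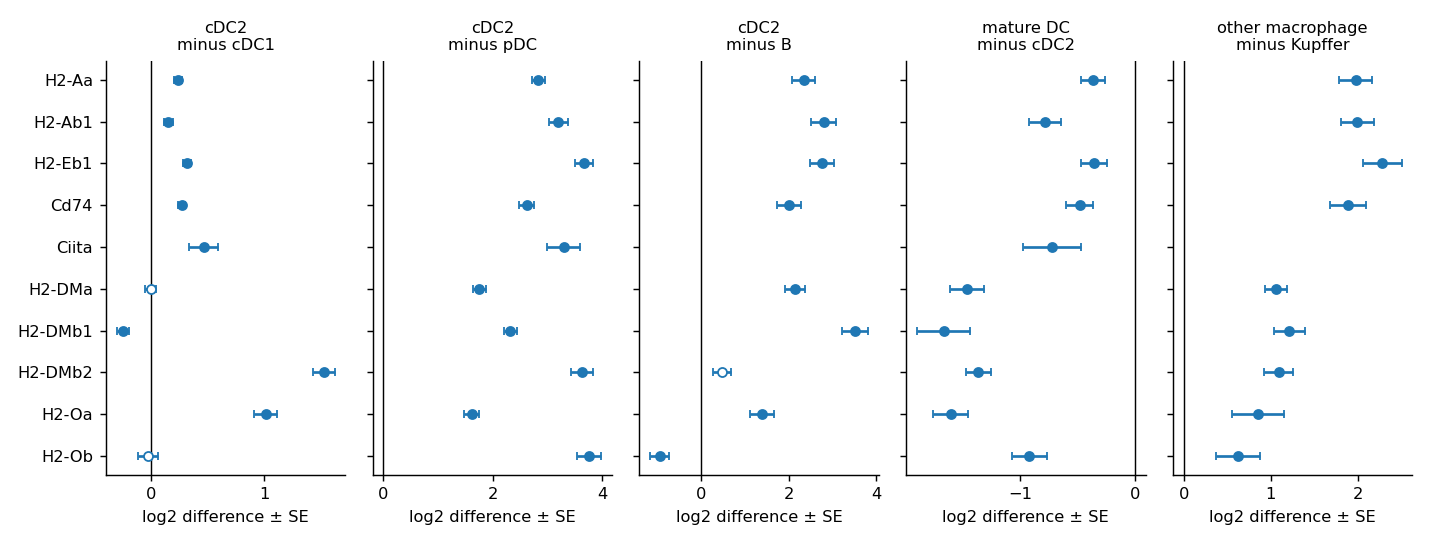
Log2 differences of the members between cell types, with bars of 1 SE, from the fit with the library as a block. Filled points passed the test at an adjusted p of 0.05 and open points did not, and a missing point was not tested. H2-DMb2 (1.53) and H2-Oa (1.01) lead cDC2 over cDC1, and H2-Ob (−0.94) is the member lower in cDC2 than in B cells.

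Ratios within the group differed between some cell types and overlapped between others. The ranges given here leave out D0 B, and a library needed 10 UMIs of each gene. H2-DMb2 per H2-DMb1 was 3.07 to 5 in B cells (4 libraries) and 2.19 in those of D0 B, against 0.171 to 0.531 in cDC2, 0.0829 to 0.140 in cDC1 and 0.0312 to 0.108 in other macrophages. B cells and each of these types did not overlap. H2-Ob per H2-DMa was 0.840 to 2.18 in B cells, 0.111 to 0.173 in cDC2, 0.109 to 0.285 in cDC1 and 0.0151 to 0.0455 in pDC (4 libraries). In pDC, H2-Ob per H2-Oa was 0.124 to 0.238, against 0.555 to 2.13 in cDC2 and 2.56 to 5.33 in B cells. H2-DMa per H2-Ab1 was 0.203 to 0.270 in pDC, 0.0628 to 0.0907 in cDC2 and 0.0323 to 0.0585 in mature DC, without overlap between these types. The pDC ranges were not apart from all types, since H2-Ob per H2-DMa was 0.00436 to 0.0482 in other macrophages, H2-DMb2 per H2-DMb1 was 0.0981 to 0.145 in pDC beside the cDC1 range, and H2-DMa per H2-Ab1 was 0.103 to 0.452 in Kupffer cells. These ratios are compared between cell types for the same genes and say nothing of the ratio of the proteins.

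**Figure D4:**
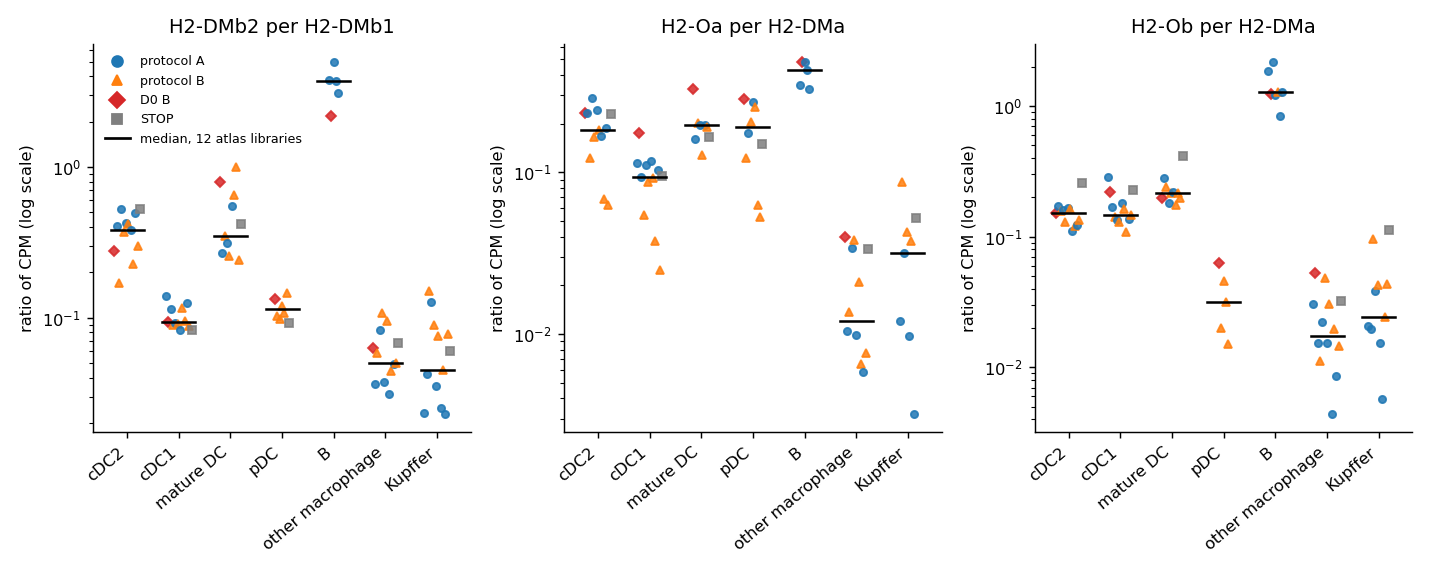
Ratios of CPM between H2-DM and H2-O genes on a log scale, by cell type. Points are libraries, coloured by protocol, with lines at the median of the atlas libraries. B cells lie highest for H2-DMb2 per H2-DMb1 (2.19 to 5) and for H2-Ob per H2-DMa (0.840 to 2.18), and pDC lie low for H2-Ob per H2-DMa.

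Mature DC, the Ccr7+ state in which DCs migrate, had lower levels of all 10 members than cDC2 (45.5% of 7239 genes called in either direction). They were 1 cluster of 700 cells, not split by cDC1 or cDC2 origin, and were not tested against cDC1. In lymph nodes the paper found both Xcr1+ and Cd11b+ Mgl2+ cells among Ccr7-high DCs. Median H2-DMb2 and H2-Oa were 111 and 60.9 CPM in mature DC, and 97.2 and 99.95 in cDC1. A mix of origins and a change with maturation cannot be told apart here. The difference from cDC2 was largest in H2-DM and H2-Oa, with log2 differences of −1.66 ± 0.23 for H2-DMb1, −1.60 ± 0.15 for H2-Oa, −1.46 ± 0.15 for H2-DMa and −1.36 ± 0.11 for H2-DMb2, each lower in 9 of 9 libraries. It was −0.92 ± 0.15 for H2-Ob, −0.36 ± 0.11 for H2-Aa, −0.36 ± 0.11 for H2-Eb1, −0.48 ± 0.12 for Cd74 and −0.78 ± 0.14 for H2-Ab1. Ciita differed by −0.72 ± 0.25 (adjusted p = 0.025) and lost its call without possible doublets and without D3 A, D3 B or D5 A. Among the other pathway genes, a list of class II regulators, proteases, turnover factors and class I genes, 15 of 27 tested were higher in mature DC and 3 were lower. The ubiquitin ligase gene March1, whose product removes class II from the surface, was lower by 2.58 ± 0.18 on the log2 scale, and Ctss, the protease that trims the invariant chain, by 1.02 ± 0.09. H2-Eb2 (2.96 ± 0.24), a neighbouring beta chain gene, Nlrc5 (3.06 ± 0.20), the class I counterpart of Ciita, and B2m (0.97 ± 0.09) were higher.

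Of the same pathway list, 15 of 29 genes were higher in cDC2 than in cDC1 and 9 were lower, where 53.7% of all genes were called. Neither its class II nor its class I genes were tested as a group. Irf4, a transcription factor of cDC2, was higher by 4.04 ± 0.21, H2-Eb2 by 2.85 ± 0.21, and the class II processing genes Lgmn by 1.56 ± 0.08, Ctss by 1.43 ± 0.05 and Ifi30 by 1.42 ± 0.08. The class I processing genes Psmb9 (−1.52 ± 0.05), Tap2 (−1.16 ± 0.07), Psmb8 (−1.03 ± 0.06) and Tap1 (−0.94 ± 0.05) were lower in cDC2. Across 15 cell types, the genes outside the list whose levels were most like the mean of the members were Wdfy4 (Pearson r = 0.938), Pkib (0.923), Fgd2 (0.917), Ryr1 (0.904) and Lactb (0.887), among 11209 genes and as a description. Wdfy4 was also a marker used to name cDC1. Between members, r ran from 0.610 (H2-DMb1 and H2-Ob) to 0.997 (H2-Ab1 and H2-Eb1).

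Within macrophages, 9 of 9 members tested were higher in the other macrophages than in Kupffer cells (53.2% of 9464 genes called). H2-Eb1 differed by 2.28 ± 0.22, H2-Ab1 by 2.00 ± 0.19, H2-Aa by 1.98 ± 0.19 and Cd74 by 1.89 ± 0.21, all higher in 12 of 12 libraries. H2-DMb1 (1.22 ± 0.18) and H2-DMa (1.06 ± 0.12) differed less and were higher in 11 of 12. H2-Ob (0.63 ± 0.25, adjusted p = 0.044) lost its call in 9 of the libraries left out, and H2-Oa (0.85 ± 0.30) without D5 A or D9 A. The other macrophages were not uniform, since H2-Ab1 was 6007 CPM in a cluster of 2937 cells, 1665 in one of 1705 cells and 1623 in one of 1382 cells, and the last drew 31.9% of its cells from D25 A. Their H2-Ab1 level was 787 CPM in D19 A and 1937 in D25 A but 4670 in D19 B and 6311 in D25 B. On the earlier DDC days the protocols lay close, at 5674 and 5032 CPM on D3, 7171 and 7004 on D5 and 4389 and 4448 on D9 (A then B).

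H2-Ab1 in LSEC and BEC lay on both sides of its level in T cells of the same library. It was 0.35 to 3.2 times that level in LSEC and 0.487 to 8.14 times (median 1.2) in BEC. T cells in mice are not known for class II chains and serve here as background for H2-Ab1 and Cd74. They are no such measure for H2-DMa, at 0.205 to 0.508 per H2-Ab1 in T cells outside D0 B and a median of 0.130 in free RNA. H2-Oa and H2-Ob lay well below T cells, with median ratios of 0.062 and 0.110 in LSEC (lower in 10 and 9 of 12 libraries) and of 0.122 and 0.126 in BEC (lower in 7 and 8 of 9). LSEC exceeded T cells of the same library in 8 of 12 libraries for H2-Ab1 (median ratio 1.14) and in 4 of 12 for Cd74 (0.904). With cells thinned to 1500 UMIs, an H2-Ab1 UMI was found in 11.5% ± 9.32 (SD, n = 12) of LSEC and 10.7% ± 9.25 (n = 12) of T cells. The unthinned shares were 25.5% and 23.9%, at median depths of 5233 and 4387 UMIs. Whether LSEC exceeded the T cell background was not tested. Macrophages exceeded LSEC in 8 of 8 members tested (81.1% of 11040 genes called), by 3.03 ± 0.23 for H2-Ob to 6.24 ± 0.25 for Cd74.

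BEC differed from the T cell background in Cd74. It was higher in BEC than in T cells in 9 of 9 libraries, by 1.04 to 5.41 times (median 2.33), while H2-Ab1 was higher in 5 of 9. Cd74 was 159 CPM in D0 A, 787 in D3 B, 548 in D5 B, 372 in D9 A, 369 in D9 B, 443 in D19 A, 515 in D19 B, 363 in D25 A and 880 in D25 B. BEC of the libraries held 2.37 to 15.8 Cd74 UMIs per H2-Ab1 UMI (median 4.87), where free RNA outside D0 B held 1.63 to 3.38, and D25 A was highest. In clusters the ratio reached 13.8 in 405 BEC with 881 CPM of Cd74 and 63.9 of H2-Ab1, and 10.8 in 663 BEC. Not all clusters were high, since 659 BEC had 75.9 CPM of Cd74 and a ratio of 3.79, and 445 BEC had 120.5 CPM and 3.29. A cluster of 114 BEC had 1201 CPM of H2-Ab1 and a ratio of 1.96, near that of free RNA. A thinned Cd74 UMI was found in 34.03% of BEC (mean of 9 libraries, 15.1 to 47.0) and in 24.1% of T cells (12 libraries, 5.68 to 68.2), and 76.4% and 47.1% unthinned at median depths of 13800 and 4387 UMIs. Between LSEC and BEC, 1 of the 6 members tested was called, Cd74, lower in LSEC by 1.29 ± 0.26 (adjusted p = 0.00039) and in 9 of 9 libraries, with 78.6% of 11527 genes called. H2-Aa (0.51 ± 0.27), H2-Ab1 (−0.00 ± 0.31) and H2-Eb1 (0.21 ± 0.32) did not pass. Without cells that carried markers of another lineage, 4 members were called, among them H2-Ab1 higher in LSEC. Such cells were flagged by at least 2 UMIs of markers of another lineage, and the share of all genes called without them is not given here.

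The DDC diet was compared with steady state per cell type, with the protocol as a term. In cDC2 and pDC the steady-state arm was the D0 B library alone, and in BEC it was D0 A alone. These fits assume that the lone library varies like the other groups, so in them an effect of diet and a property of that 1 library cannot be told apart. In cDC2, Cd74 was 71540 CPM in D0 B and 24790, 27630, 35990 and 26250 CPM at onset, with a median of 29040 (27290 to 37860) over 6 progression libraries. Within protocol B, the mean of DDC libraries differed from D0 B by −1.26 on the log2 scale, and protocol A had no steady-state value. Cd74 lay below D0 B in 10 of 10 DDC libraries, and DDC minus D0 B was called (−1.59 ± 0.26, adjusted p = 0.0016, edgeR). H2-DMb1 was called below D0 B as well (−0.87 ± 0.27, adjusted p = 0.048), at 1441 CPM in D0 B and 574.5 to 1173 with DDC, a call lost on leaving out each of 9 of the 10 DDC libraries in turn, all but D25 B. H2-Ab1 was 8265 CPM in D0 B and 12450 to 16930 in the 10 DDC libraries, all above it, and did not pass (0.49 ± 0.28, adjusted p = 0.29). In all 2 of 10 members were called, both lower, beside 11.1% of 11585 genes. The same D0 B values give the ratio of Cd74 to H2-Ab1 described above, and the comparison could not be fitted without D0 B.

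In pDC, 7 of 9 members tested were called lower in the 7 DDC libraries than in D0 B, the only steady-state library, where 17.8% of 9357 genes were called and the fit had 4 residual degrees of freedom. Cd74 was 25420 CPM in D0 B and 3862 to 8144 in the DDC libraries (−2.38 ± 0.32, adjusted p = 0.00031). The log2 difference from D0 B was −1.89 ± 0.32 for H2-DMb2, −1.72 ± 0.38 for H2-Ob, −1.57 ± 0.27 for H2-DMb1, −1.53 ± 0.41 for H2-Oa, −1.395 ± 0.30 for H2-Aa and −1.35 ± 0.30 for H2-Eb1. The Cd74 per H2-Ab1 of D0 B stood apart also in its free RNA, as given above. Free RNA of D0 B held 242 CPM of H2-Ob and 254 of H2-DMb2, against 3.70 to 70.0 and 2.41 to 116 in the other libraries. Its H2-DMa, at 648 CPM, lay inside their range (48.5 to 853). H2-Ob in pDC was 31.15 CPM in D0 B and 5.31 to 19.2 with DDC. The part of free RNA in these differences was not tested. H2-Ab1 (−0.68 ± 0.33, adjusted p = 0.15) and H2-DMa (−0.48 ± 0.27, adjusted p = 0.22) did not pass. In D25 B, H2-Ab1 was 2565 CPM in pDC, near the 2568 of D0 B, and 1255 and 1356 in D9 B and D19 B.

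In cDC1, B cells, all macrophages, LSEC and BEC, no member was called with DDC by edgeR under the reported settings, and other settings moved these counts. Without possible doublets 6 members were called in cDC1, and without the filter on low counts 2 in cDC1, 5 in macrophages, 1 in LSEC and 3 in BEC. In cDC1 the count was 0 of 10 (4 at an unadjusted p under 0.05 and 1 by DESeq2, beside 0.872% of 9400 genes), in B cells 0 of 9 (5 and 0, beside 0.307% of 5869), in macrophages 0 of 10 (4 and 1, beside 5.24% of 12046), in LSEC 0 of 9 (1 and 0, beside 0.359% of 12816) and in BEC 0 of 9 (1 and 1, beside 0.561% of 14087). The shares in this paragraph are of all genes called by edgeR at the adjusted threshold. No such share is given for the unadjusted p, for DESeq2 or for the other settings named. Whether those counts are particular to the members was not tested. In cDC1, where both D0 libraries were measured, Cd74 was 23150 CPM under D0 A (21 cells) but 63770 under D0 B (926 cells), while DDC libraries lay at 20630 to 30750. Within protocol A the mean of DDC libraries differed from D0 A by −0.02 on the log2 scale, and within protocol B from D0 B by −1.41. Without D0 A, 5 members were called in cDC1, 2 in macrophages and 1 in B cells. In BEC, Cd74 was 159 CPM in D0 A and 363 to 880 in the 8 DDC libraries, all above it (1.61 ± 0.49, adjusted p = 0.13; 1.30 within protocol A, where 3 of 3 lay above D0 A), which passed in DESeq2 (1.63) and not in edgeR. BEC of D0 A lay mostly in clusters of their own, 1 of 454 cells (98.9% from D0 A, Cd74 at 159 CPM) and 1 of 113 cells (92.9%, 237 CPM), so the values with and without DDC come largely from different BEC clusters. In macrophages Cd74 missed the threshold (−1.72 ± 0.49, adjusted p = 0.056). Among the other macrophages alone, Cd74 was 23320 CPM in D0 A, 70240 in D0 B and 2278 to 18470 with DDC, and was called lower (−1.91 ± 0.47, adjusted p = 0.027, edgeR). The D0 cells of this class lay mostly in clusters of their own, 1 of 129 cells (96.1% from D0 B, Cd74 at 77670 CPM) and 1 of 73 cells (98.6% from D0 A, 25680 CPM), so this call sets different clusters side by side. A change within a cell state and a change of cell states cannot be told apart here. It was 1 of 10 members called there, beside 6.2% of 10866 genes. In Kupffer cells 0 of 9 members were called by edgeR (1 at an unadjusted p under 0.05, beside 2.79% of 10649 genes), and a cluster of 307 Kupffer cells came to 97.7% from D0 A. DESeq2 was not run on this split.

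Progression minus onset uses no D0 value in the contrast itself, though the D0 libraries stayed in the fit and its estimate of spread. In cDC1 0 of 10 members were called (0 at an unadjusted p under 0.05 and 0 by DESeq2, beside 0% of all genes), in cDC2 0 of 10 (0 and 0, beside 0%), in pDC 0 of 9 (2 and 0, beside 0%), in B cells 0 of 9 (0 and 0, beside 0.409%), in macrophages 0 of 10 (3 and 0, beside 0.158%), in LSEC 0 of 9 (0 and 0, beside 0.039%) and in BEC 0 of 9 (3 and 0, beside 0%). The shares in this paragraph are of all genes called by edgeR at the adjusted threshold, and none is given for the unadjusted p or DESeq2. In cDC2, H2-Ab1 differed by 0.07 ± 0.16 and Cd74 by 0.03 ± 0.17, and H2-Oa, the largest, by −0.40 ± 0.25. In macrophages, H2-Oa differed by −1.92 ± 0.57 and H2-DMb2 by −1.12 ± 0.40, and neither passed. Among the other macrophages alone, 0 of 10 members were called by edgeR, beside 0.239% of 10866 genes, with 7 at an unadjusted p under 0.05. All 10 log2 differences were negative there, from −0.43 ± 0.22 for H2-DMa to −2.04 ± 0.57 for H2-Oa, with H2-Ab1 at −0.89 ± 0.39 (adjusted p = 0.44). In Kupffer cells 0 of 9 were called, beside 0.0657% of 10649 genes, with 3 at an unadjusted p under 0.05, and H2-Ab1 differed by 0.06 ± 0.28 and H2-Oa by −2.06 ± 0.59. DESeq2 was not run on this split. H2-Oa was low in D19 B and D25 B of several types, at 78.9 and 76.5 CPM in cDC2 (124 to 323 in the others), 43.5 and 27.1 in cDC1 (47.0 in D3 B and 81.5 to 173 in the others) and 22.3 and 27.7 in pDC (61.7 to 141 in the others), while D19 A stood at 213 and D25 A at 189 in cDC2. The cause was not tested.

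**Figure D5:**
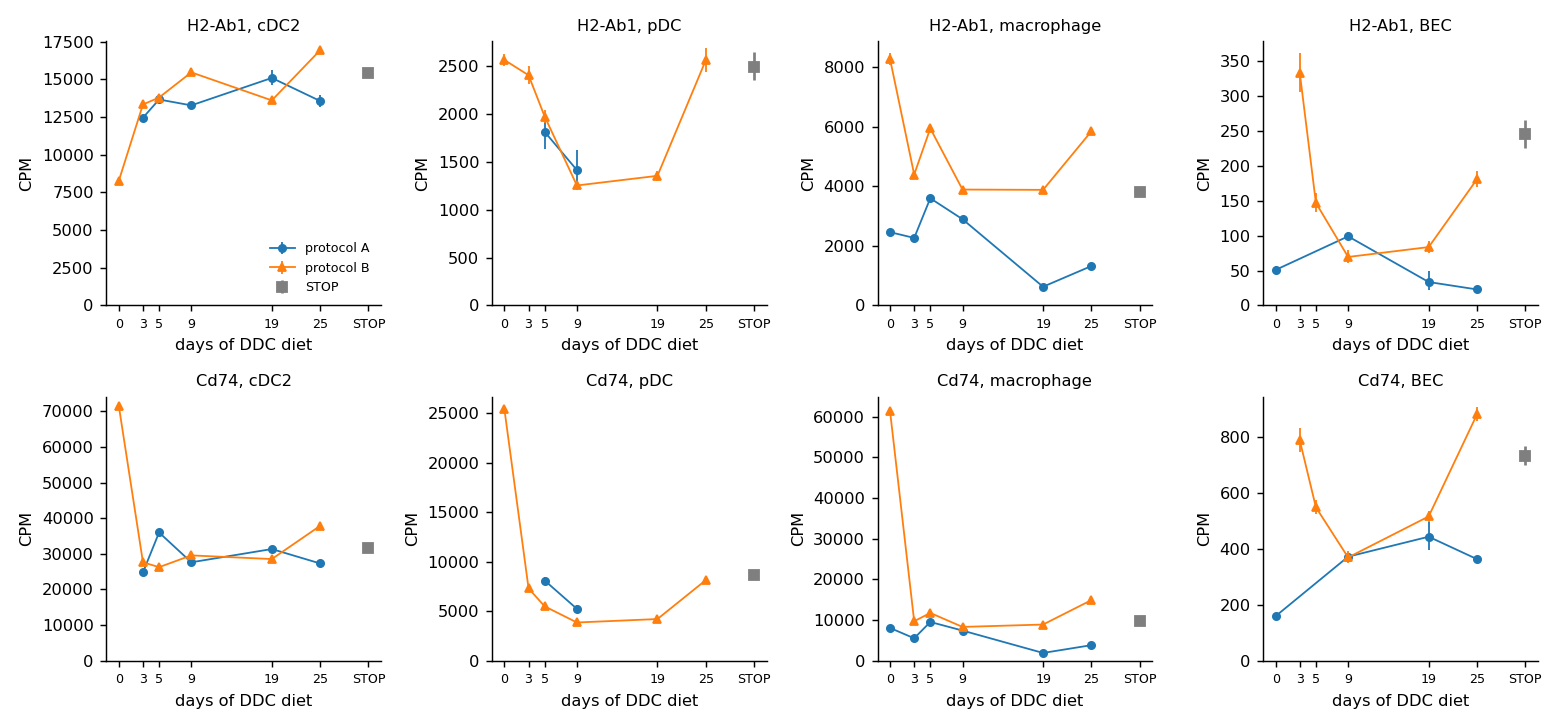
H2-Ab1 (top) and Cd74 (bottom) in CPM by day of DDC diet in cDC2, pDC, macrophages and BEC, with the STOP library at the right. Lines join libraries of one protocol and bars are exact 95% Poisson intervals, which cover counting error only. The D0 B point of Cd74 (71540 CPM in cDC2) lies above all other days in cDC2, pDC and macrophages, and the H2-Ab1 point of D0 B (8265) lies below them in cDC2.

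The diet response was tested between types. Between cDC2 and pDC, H2-Ab1 (1.38 ± 0.31, adjusted p = 0.039) and H2-Ob (1.78 ± 0.34, adjusted p = 0.015) were called in edgeR, with a more positive DDC minus D0 B difference in cDC2, beside 1.28% of 8623 genes. DESeq2 called 0 of the 10, and leaving out 1 DDC library in turn gave 1 to 6 calls (6 without D3 B, 1 without D5 A, D19 B or D25 B). D0 B was the only steady-state library of both types, so the difference rests on how these 2 types stood in that library. Free RNA of D0 B was high in H2-Ob (242 CPM), and its part in the H2-Ob difference was not tested. The other pairs gave 0 members in edgeR. These were cDC2 and cDC1 (0.081% of genes called, 5 members at an unadjusted p under 0.05 and 2 by DESeq2), cDC2 and B cells (1.21%, 9 and 0), cDC2 and macrophages (0.227%, 8 and 1), mature DC and cDC2 (0%, 0 and 0), macrophages and LSEC (0%, 2 and 0), LSEC and BEC (0.321%, 1 and 0) and other macrophages and Kupffer cells (0.74%, 4 and 0). All of these rest on D0 libraries. The shares are of all genes called by edgeR at the adjusted threshold. None is given for the unadjusted p, for DESeq2 or for libraries left out.

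Recovery was measured in the STOP library and set beside D19 B of the same protocol, with no replicate and so no test. Poisson intervals narrow as counts rise, so genes with many UMIs lie apart at small ratios. The shares of genes given here cover all genes with at least 20 summed UMIs and were not matched for abundance. In cDC2, H2-Oa was 269 CPM in STOP and 78.9 in D19 B (3.41 times), H2-DMb2 478 and 211 (2.27 times), H2-Ob 303 and 139 (2.17 times), and H2-Ab1 15410 and 13600 (1.13 times). Intervals of 7 of 10 members lay apart with STOP above in cDC2, where 11.6% of genes did, and H2-DMa (1.02), H2-DMb1 (0.975) and Ciita (0.958) were close to 1. In cDC1 this count was 7 (8.49% of genes), with H2-Oa at 2.64 and H2-Ob at 2.19 times, in mature DC 7 (6.12%) and in pDC 7 (6.64%), where H2-Ab1 was 1.84 and Cd74 2.05 times D19 B. In macrophages it was 5 (17.7%), with H2-Oa at 6.27 times (46 UMIs in STOP and 25 in D19 B) and H2-Eb1 below D19 B at 0.886 times. Within Kupffer cells (106 of the 250 macrophages in STOP and 150 of 754 in D19 B) and within the other macrophages it was 8 and none lay below (13.9% and 11.7% of genes), with H2-Eb1 at 1.43 and 1.05 times. In LSEC it was 4 (21%) and in BEC 7 (14.3%), with H2-Ab1 at 2.93 and Cd74 at 1.42 times. In fibroblast or stellate cells, where D19 B held only 20 cells and STOP 521, the direction was the opposite, with 0 members above and 7 below (9.26% of genes below), among them H2-Ab1 at 624.9 CPM in STOP and 1423 in D19 B and Cd74 at 1302 and 2809 CPM. Of the types taken as background, T cells had 8 members above (27.1% of genes) and neutrophils 9 (12.6%). Free RNA moved in both directions. H2-DMa was lower in free RNA of STOP (363 CPM, and 491 in D19 B), while H2-Oa (41.2 and 22.6) and H2-Ob (62.6 and 34.9) were higher. T cells stood at 2.47 times for H2-Ab1 and 2.25 times for Cd74, and the part of RNA from other cells in the LSEC and BEC values was not tested. H2-Oa and H2-Ob in cDC2 of STOP were 269 and 303 CPM, against 76.5 to 323 and 124 to 189 in the atlas libraries.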

How the data were processed

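Each of the 13 libraries was deposited as a matrix of UMI counts per gene and barcode, which the authors made with kallisto on GRCm38 per the labels (version not given in the sources used here), unnormalized and unfiltered. A barcode counted as a cell from 1500 UMIs on, the threshold of the study's methods. Cells were clustered without the 10 members and the other pathway genes (2000 variable genes, 40 principal components, 25 neighbours, resolution 1.5, and 30 components and 1.0 within lineages, igraph 0.11.9) and clusters were named from marker genes that needed 3 markers detected in 10% of cells at 2 times the level of other cells. The naming rule was revised after clusters were seen, and clusters with conflicting markers stayed unnamed. Markers of DCs and of macrophages or monocytes counted as a conflict only when judged against the other clusters within a lineage. Clusters of 2937 and 1705 other macrophages came from the clustering of the DC lineage. No doublet caller was run, and cells with at least 2 UMIs of another lineage's markers were left out as an alternative. This flag did not cover DC markers in macrophages or monocytes, nor the reverse.

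Counts were summed per library and cell type (at least 20 cells) and tested with edgeR 4.0.16 quasi-likelihood fits over all genes (R 4.3.3), with Benjamini-Hochberg adjustment and a threshold of 0.05. Diet comparisons had the protocol as a term, and comparisons between types had the library as a block. CPM scaled a gene's counts by the total UMIs of the summed cells, and intervals cover counting error only. Shares of cells are means over libraries, and their SD is the spread between libraries. DESeq2 1.42.0, no filter on low counts, cells of at least 3000 UMIs and leaving out each library were the alternatives. STOP entered no fit. The scripts were tested on simulated data with 200 changed genes. The members, pathway list and markers were chosen with earlier results of these data known. All 10 members are named, and pathway genes are named among those called. One progression B library is labelled day 18 in one field and day 19 in its title, and D19 is used here.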

Additional observations from a re-analysis of the deposited data

Results flagged for a closer look

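In 100 groups of 4 to 6 libraries, 10 had a library apart from the rest by Dixon's criterion, where chance gives about 1 group in 20. The groups are not independent, since the same libraries recur in them. This leaves the expected count as it is but makes its spread unknown, so the 10 was not tested against it. In LSEC at onset, 6 members stood highest in D5 B, with H2-Ab1 at 316.4 CPM (next 56.3), H2-Aa at 297.7, H2-Eb1 at 271.9, H2-DMb2 at 8.699, H2-Oa at 3.222 and Ciita at 0.6443. The Ciita value rests on 2 UMIs (exact 95% Poisson interval 0.078 to 2.33 CPM), and its interval overlaps those of the other onset libraries. T cells of D5 B stood at 301.2 CPM of H2-Ab1, and the part of RNA from other cells was not tested. The 4 others were all in D25 B, with Cd74 at 30750 CPM in cDC1 (next 23670), Cd74 at 879.8 in BEC (next 515.2), H2-Ab1 at 2565 in pDC (next 1416) and H2-Ob at 2.005 in LSEC (next 0.838). This H2-Ob value rests on 3 UMIs (0.413 to 5.86 CPM), and the interval of the next library lies inside that range. The difference of DDC libraries from D0 B was called by edgeR as unequal between cDC2 and pDC for H2-Ab1 (log2 difference 1.382) and H2-Ob (1.78). DESeq2 called 0 members, and leaving out 1 DDC library in turn gave 1 to 6 in edgeR (6 without D3 B, 1 without D5 A, D19 B or D25 B). D0 B was the only steady-state library of both types, and diet cannot be told apart from that library.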

How the results depend on the processing

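No difference called in the reported comparisons changed sign under an alternative. Over the alternatives with a test, members called in the reported comparisons were called 1150 times and lost 35 times, and members not called there stayed so 3008 times and were gained 100 times (6 more calls were of members filtered out there). Of the counts and shares, 429 stayed close (counts within 1.5 times, shares within 1 SD) and 59 moved. These tallies overstate how steady the calls were, since leaving out a library that was not in a fit repeated that fit unchanged. The fit of cDC2 and B cells held 6 libraries and was counted for 12 libraries left out. Counts of 0 that stayed 0 are also among the 429. The diet groups were not paired by replicate, since the labels give no replicate numbers, only a day and a protocol. The protocol was a term in their fits. Between cell types the library was the block. The share of all genes called under an alternative is not given beside most of the counts that follow. With DESeq2, the count of members called with DDC became 1 in cDC1, macrophages and BEC, that between LSEC and BEC 2, and the diet differences between types 2 for cDC2 and cDC1, 0 for cDC2 and pDC and 1 for cDC2 and macrophages. Without a filter on low counts it became 2 in cDC1, 5 in macrophages, 1 in LSEC and 3 in BEC with DDC, 3 in macrophages and 3 in BEC for progression against onset, 3 between LSEC and BEC, and, for the diet differences, 2 for cDC2 and cDC1, 7 for cDC2 and pDC, 3 for cDC2 and B cells, 7 for cDC2 and macrophages, 1 for LSEC and BEC and 3 for other macrophages and Kupffer cells. With at least 3000 UMIs per cell it became 2 between LSEC and BEC and 2 for the diet difference of cDC2 and B cells. Without possible doublets it became 6 in cDC1 and 1 in cDC2 with DDC, 4 between LSEC and BEC, and 2, 6 and 1 for the diet differences of cDC2 and cDC1, cDC2 and pDC, and LSEC and BEC. In other macrophages alone, 1 member was called with DDC (Cd74, −1.91, beside 6.2% of genes), and in Kupffer cells 0 of 9. The cause was not tested. Leaving out 1 library gave 0 to 5 members with DDC in cDC1 (5 without D0 A), 1 to 3 in cDC2, 7 to 8 in pDC, 0 to 1 in B cells (1 without D0 A), 0 to 2 in macrophages (2 without D0 A, 1 without D9 A or D19 A) and 0 in LSEC and BEC. It gave 8 between cDC2 and cDC1, 10 against pDC and macrophages, 8 to 9 against B cells, 9 to 10 for mature DC, 7 to 8 for macrophages and LSEC, 1 to 2 for LSEC and BEC and 7 to 9 for other macrophages and Kupffer cells. For the diet differences it gave 0 to 2 for cDC2 and cDC1 (2 without D3 A or D3 B), 1 to 6 for cDC2 and pDC (6 without D3 B, 1 without D5 A, D19 B or D25 B) and 0 to 1 for cDC2 and B cells (1 without D5 B). The cDC2 and pDC diet fits could not be made without D0 B, nor that of BEC without D0 A, nor those of B cells without possible doublets, and fibroblast or stellate cells of STOP had no value at 3000 UMIs. Without thinning, the shares were 25.45% (H2-Ab1, LSEC), 41.97% (H2-Ab1, BEC), 43.46% (Cd74, LSEC), 76.38% (Cd74, BEC) and 47.12% (Cd74, T cells). Depth limits Ciita most, with medians under 2 CPM in pDC, Kupffer cells, BEC and LSEC.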
